A study of Mus musculus with 9 samples.

Results

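Icos and related costimulatory receptors and ligands of T cells are described here: 10 genes, chosen by name from the 24391 genes of the batch-corrected count table. They comprise the 2 CD28 family receptors Icos and Cd28, the nectin-binding receptor Cd226, the 5 TNF receptors Cd27, Tnfrsf4 (OX40), Tnfrsf8 (CD30), Tnfrsf9 (4-1BB) and Tnfrsf18 (GITR), and the 2 TNF family ligands Cd70 and Tnfsf8, which bind CD27 and CD30. All 10 were found and all 10 passed the low-count filter.

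T cells need a second signal beside the antigen receptor, and a set of surface receptors gives it. CD28 and its relative ICOS bind B7 family ligands and signal through phosphoinositide 3-kinase. CD226 binds the poliovirus receptor PVR and nectin 2, and the costimulatory members of the tumour necrosis factor (TNF) receptor family recruit TRAF adaptors and activate NF-κB.

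RNA was sequenced from mouse CD8+ T cells after 72 h of activation in culture, in 4 libraries of cells given an LSD1 inhibitor (LSD1i) during activation and 5 libraries of cells that were not treated (NT). Both groups grew in medium with interleukin 2 at 100 U/mL. LSD1 is a histone demethylase of corepressor complexes. No source used here names the compound, its dose or the mouse strain. Nor does one say that the replicates came from different animals or cultures, and the p-values below therefore refer to library-to-library spread alone, part of which may be technical.

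Raw libraries held 15163983 to 29245278 counted reads. The raw and the batch-corrected table disagree on the names of 4 libraries. Matched by their genes at 0, raw LSD1i 1 and 2 are batch-corrected NT 1 and 2, and raw NT 1 and 2 are batch-corrected LSD1i 1 and 2, while the other 5 libraries match by name. The labels do not settle which is right. Groups are named here as in the batch-corrected table, unless raw names are stated, and directions that draw on replicates 1 and 2 depend on that choice. The libraries also form 2 sets, replicates 1 and 2 (4 libraries) and replicates 3 to 5 (5 libraries), which the authors' batch correction shifted in opposite directions. Of the CD8 T cell markers, Cd8a was at 453.6 to 498.9 CPM in LSD1i and 338.4 to 412.1 CPM in NT, a log2 fold change of 0.38 ± 0.08 that passed edgeR's test described below (adjusted p = 0.0266; 0.126 in raw counts with the replicate set as a term, and lost in 6 of 9 fits without 1 library, up to 0.101). It was the one of 8 CD8 T cell markers that passed in edgeR, and by an unadjusted p under 0.05, 3 were higher and 1, Cd2, was lower (−0.33 ± 0.15, adjusted p = 0.314). In DESeq2, a second test used below, 3 of the 8 were higher and 0 lower. These were Cd8a (adjusted p = 0.000223), Cd8b1 (0.0182) and Cd247 (0.038), where DESeq2 called 3.34% of all genes higher. The summed level of the 8 CD8 T cell markers was 2362.1 to 2539.1 CPM in LSD1i and 2065.2 to 2308.4 CPM in NT. Cd4 and Foxp3, which define CD4 and regulatory T cells that use several of these receptors, had at most 5 counts in any library. Zbtb7b, on the same marker list, was detected, at 38.4 to 45.3 CPM in LSD1i and 27.9 to 46.3 CPM in NT.

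The coding sequences show how the 2 CD28 family members differ in the tail that signals. Shown are 24 bases on either side of the same motif in each reading frame, with its codons for tyrosine, methionine, any residue and methionine in capitals. In textbook accounts this motif binds phosphoinositide 3-kinase in both receptors, and the form in CD28 also binds the adaptor GRB2. Both genes lie on chromosome 1, plus strand, and the sequences are from GENCODE M21 transcripts (GRCm38), 5′ to 3′.
Icos (transcript Icos-202, coding bases 517 to 576): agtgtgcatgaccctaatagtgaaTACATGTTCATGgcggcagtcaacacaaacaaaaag
Cd28 (transcript Cd28-201, coding bases 541 to 600): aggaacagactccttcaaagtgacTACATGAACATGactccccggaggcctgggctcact

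The motif was searched as TANATGNNNATG, in frame and on the coding strand only, where N is any base. It occurred once in each of these transcripts, in 2 of the 10 genes (Icos and Cd28) and in 0.867% of 21558 protein-coding genes. The codon for its free residue was ttc in Icos and aac in Cd28. The match describes the sequence and was not used in any test below.

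Icos was the only gene of this group that passed edgeR's test between LSD1i and NT, at a higher level in every LSD1i library than in any NT library. It was at 148.1, 173.3, 146.0 and 163.4 CPM in LSD1i 1 to LSD1i 4, against 85.8, 75.6, 80.2, 85.1 and 81.3 CPM in NT 1 to NT 5. CPM are counts scaled to library size by TMM (trimmed mean of M values). The groups did not overlap, the lowest LSD1i library standing well above the highest NT library. The means were 157.7 ± 13.0 CPM in LSD1i (SD, n = 4) and 81.6 ± 4.13 CPM in NT (n = 5). The fold change was 1.93, with a 95% interval of 1.71 to 2.18, or 0.95 ± 0.08 (SE) on the log2 scale. It passed edgeR's quasi-likelihood test, adjusted over all 11981 tested genes (Benjamini-Hochberg, threshold 0.05; adjusted p = 5.79e-05, rank 18 by p). In bulk RNA, more cells that express a gene and more of its RNA per cell cannot be told apart.

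Of the 10 genes, 1 rose, 0 fell and 9 did not pass, where 3.31% of all tested genes changed, 2.15% rising and 1.16% falling. In the group, 0 were lower in DESeq2, which called 2.23% of genes lower. By an unadjusted p under 0.05, 3 were higher and 0 were lower, where 14.6% of all tested genes passed in either direction. The same share over both directions applies to the unadjusted counts given for the marker and gene lists. The median log2 fold change was 0.02 over the 10 genes and −0.02 over all tested genes. In the plot of CPM by library, Icos and Cd27 are the 2 panels where the groups separate, which was so for 4.41% of tested genes in the direction of a higher LSD1i level.

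**Figure D1:**
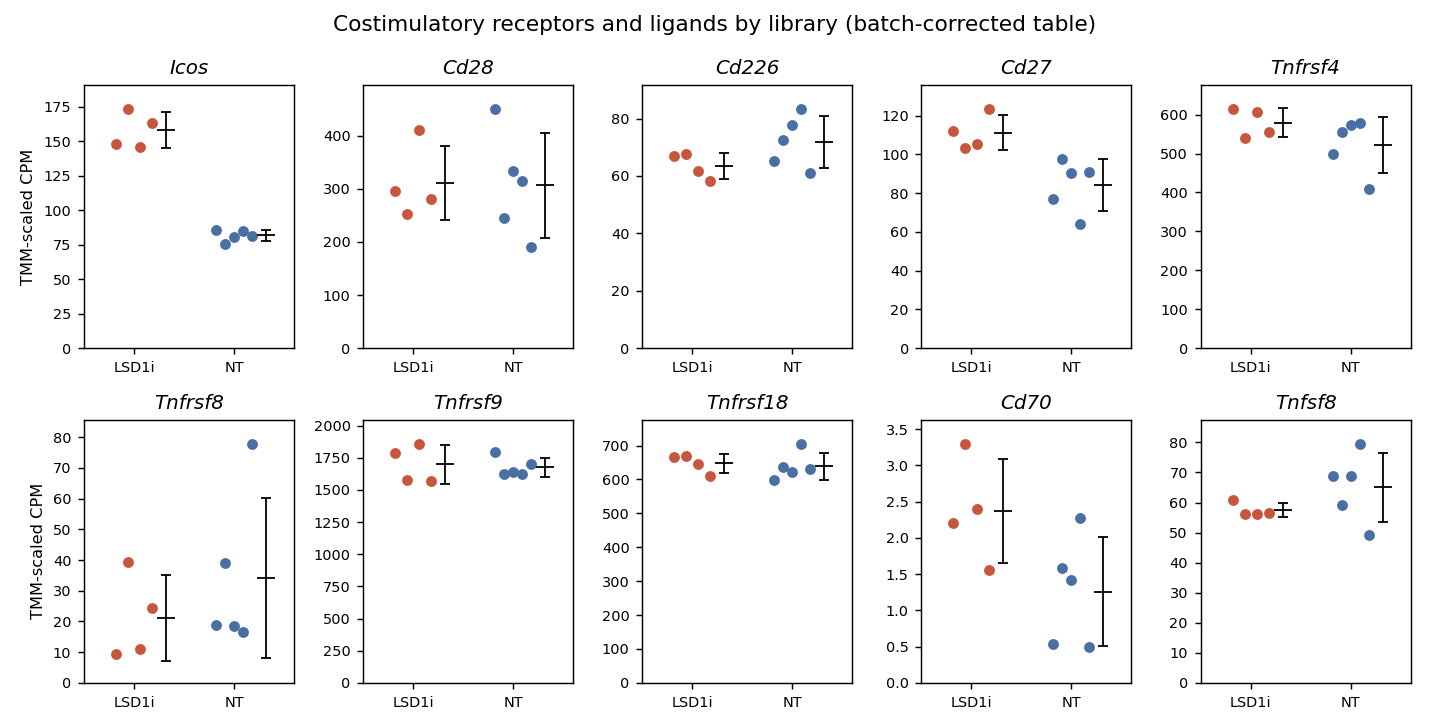
TMM-scaled CPM of each gene in the batch-corrected table, LSD1i libraries (red, 4 points) to the left of NT libraries (blue, 5 points), with the mean and SD as a black bar beside each group. Icos stands at 146.0 to 173.3 CPM in LSD1i and 75.6 to 85.8 CPM in NT, the groups overlap for Tnfrsf9 and Tnfrsf18, and NT 5 is the highest library for Tnfrsf8, at 77.9 CPM.

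In raw counts given the batch-corrected names, Icos was at 152.3, 178.1, 137.5 and 152.6 CPM in LSD1i 1 to LSD1i 4 and at 86.3, 77.3, 75.0, 79.9 and 76.8 CPM in NT 1 to NT 5. The separation was thus present before the batch correction. With the replicate set as a term in the fit, the log2 fold change was 0.96 ± 0.09 (adjusted p = 0.000292), where 1.39% of tested genes rose. It was 1.00 ± 0.17 in replicates 1 and 2 alone (adjusted p = 0.243, with 2 libraries a group, where 0.0676% of genes rose) and 0.92 ± 0.10 in replicates 3 to 5 alone (adjusted p = 0.0168, where 0.803% rose). The second set minus the first was −0.10 ± 0.18 on the log2 scale, with a 95% interval of −0.51 to 0.31 (adjusted p = 0.883), and this difference passed for 0 of 11916 genes (0%; 581 at an unadjusted p under 0.05). Leaving out 1 library at a time gave 0.91 to 0.99 in the batch-corrected table (adjusted p at most 0.000564). One library stood apart in content: NT 1 held 13.3% of its raw reads in the ribosomal RNA gene Rn45s, against 1.66 to 2.87% in the others, and without it Icos was at 0.97 ± 0.09 (adjusted p = 7.91e-05).

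Over all libraries, the direction rests on the names of replicates 1 and 2. In replicates 3 to 5, named alike in both tables, it does not, and the log2 fold change in raw counts was 0.92 ± 0.10 there. Under the raw table's own names, Icos was at 86.3, 77.3, 137.5 and 152.6 CPM in LSD1i 1 to LSD1i 4 and at 152.3, 178.1, 75.0, 79.9 and 76.8 CPM in NT 1 to NT 5. The same 2 levels then occur within each group, and the log2 fold change was 0.01 ± 0.32 (adjusted p = 0.999). With those names 0 of 11916 genes passed, and 172 (1.44%) had an unadjusted p under 0.05.

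Cd28, the receptor for CD80 and CD86, varied widely between libraries. It was at 295.9, 252.4, 411.1 and 281.4 CPM in LSD1i 1 to LSD1i 4 and at 450.7, 244.7, 334.0, 315.4 and 189.9 CPM in NT 1 to NT 5. NT holds both the highest and the lowest value, and the groups overlap. The fold change was 1.01 with a 95% interval of 0.718 to 1.42 (log2 fold change 0.01 ± 0.22, adjusted p = 0.990), so a moderate difference either way was not detectable with these libraries. Part of the spread ran with the replicate sets. In raw counts Cd28 averaged 192.1 CPM in LSD1i replicates 1 and 2 and 429.8 CPM in LSD1i replicates 3 and 4, and 248.0 and 355.1 CPM in the NT libraries of the first and the second set. After the correction these means were 274.1 and 346.3 CPM in LSD1i and 347.7 and 279.8 CPM in NT. The log2 fold change in raw counts was −0.39 ± 0.32 in the first set and 0.29 ± 0.24 in the second, and the difference between sets, 0.65 ± 0.43, did not pass (adjusted p = 0.764).

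**Figure D2:**
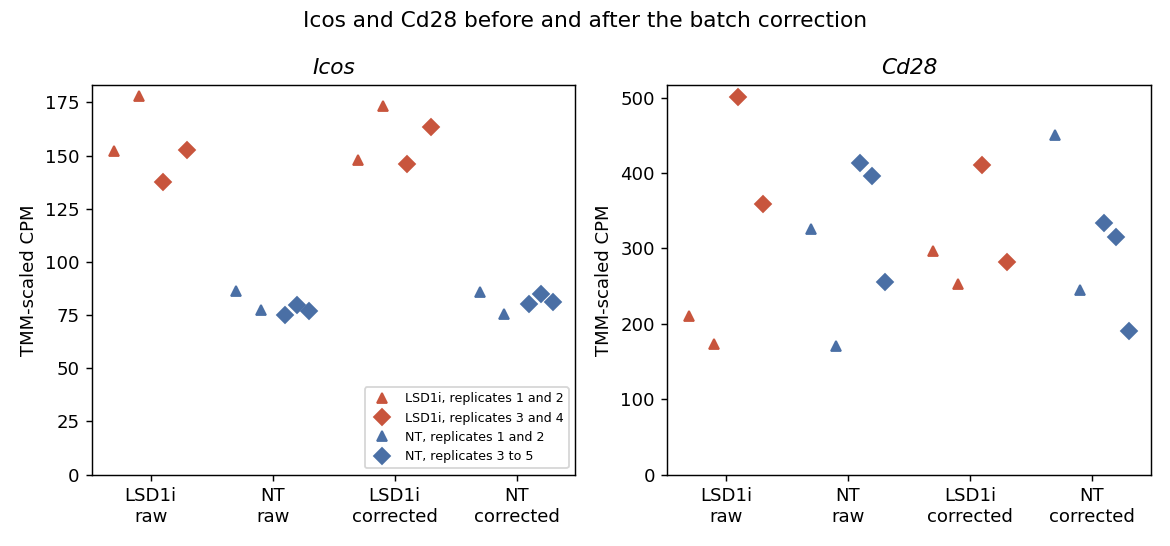
Icos and Cd28 in TMM-scaled CPM, raw and after the authors' batch correction, with the names of the batch-corrected table; LSD1i in red, NT in blue, triangles for replicates 1 and 2 and diamonds for replicates 3 and above. Icos separates the groups before and after the correction, while raw Cd28 is lower in the triangles than in the diamonds of LSD1i, 192.1 against 429.8 CPM on average.

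Cd226 encodes the activating receptor also called DNAM-1. It was at 66.8, 67.7, 61.7 and 58.1 CPM in LSD1i 1 to LSD1i 4 and at 65.1, 72.6, 77.6, 83.4 and 61.2 CPM in NT 1 to NT 5. The groups overlap, and the log2 fold change of −0.18 ± 0.10 did not pass (adjusted p = 0.492). Of 7 listed genes of inhibitory receptor axes that share ligands with the costimulatory receptors, 6 could be tested. Of these, 0 rose and 0 fell in edgeR, which called 3.31% of all tested genes, and in DESeq2 (3.34% higher, 2.23% lower). By an unadjusted p under 0.05, 1 was higher and 0 were lower. Ctla4, which competes with CD28 for CD80 and CD86, averaged 955.4 ± 107.3 CPM in LSD1i and 814.0 ± 95.3 CPM in NT (log2 fold change 0.23 ± 0.11, adjusted p = 0.362). Btla, an inhibitory receptor for HVEM, averaged 66.0 ± 7.60 CPM in LSD1i and 51.4 ± 7.14 CPM in NT (0.36 ± 0.12, adjusted p = 0.154).

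Cd27, a TNF receptor that naive T cells already carry, came second by p. It was at 112.1, 103.3, 105.5 and 123.5 CPM in LSD1i 1 to LSD1i 4 and at 76.8, 97.6, 90.4, 64.2 and 90.9 CPM in NT 1 to NT 5. All LSD1i libraries lie above all NT libraries here, but the gap is small. The log2 fold change of 0.40 ± 0.12 did not pass in edgeR (adjusted p = 0.108; 0.196 in raw counts with the replicate set as a term). It passed in DESeq2 (0.41 ± 0.13, adjusted p = 0.0376), which called 3.34% of genes higher. In raw counts the groups overlap, at 99.2 to 116.1 CPM in LSD1i and 61.9 to 101.7 CPM in NT.

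The inducible TNF receptors 4-1BB, OX40 and GITR were the most abundant of the group and did not pass. Tnfrsf9 (4-1BB) was at 1787.3, 1577.4, 1859.8 and 1566.9 CPM in LSD1i 1 to LSD1i 4 and at 1794.7, 1621.2, 1639.5, 1620.6 and 1703.0 CPM in NT 1 to NT 5. The groups overlap throughout, and the fold change was 1.01 with a 95% interval of 0.894 to 1.15. Tnfrsf18 (GITR) was at 666.4, 667.8, 644.3 and 610.4 CPM in LSD1i 1 to LSD1i 4 and at 599.8, 638.0, 622.2, 705.7 and 630.7 CPM in NT 1 to NT 5. Its fold change was 1.01 as well, with an interval of 0.903 to 1.14, and the groups overlap. For Tnfrsf4 (OX40) the values were 614.8, 540.2, 607.9 and 555.4 CPM in LSD1i 1 to LSD1i 4 and 498.2, 555.9, 573.8, 577.8 and 407.9 CPM in NT 1 to NT 5. Its fold change was 1.11, with an interval of 0.940 to 1.31, the lowest value being that of NT 5. These intervals leave out a change of the size of that of Icos, whose interval begins at 1.71.

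Tnfrsf8 (CD30), a receptor of activated lymphocytes, differed more within the groups than between them. It was at 9.38, 39.5, 11.1 and 24.3 CPM in LSD1i 1 to LSD1i 4 and at 18.8, 39.1, 18.6, 16.6 and 77.9 CPM in NT 1 to NT 5. NT 5 alone was above 40 CPM. The log2 fold change was −0.70 ± 0.53 (adjusted p = 0.649), and it was −0.13 without NT 5 (adjusted p = 0.915), −0.45 without LSD1i 1 and −1.18 without LSD1i 2 (adjusted p = 0.356). In raw counts it was −0.36 in replicates 1 and 2 alone and −1.21 in replicates 3 to 5 alone. The SD of log2 CPM was 0.97 in LSD1i and 0.96 in NT, where the median over the 7706 genes whose mean log2 CPM reached 4 was 0.13 in LSD1i and 0.18 in NT.

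Tnfsf8 encodes the CD30 ligand. It was at 60.9, 56.1, 56.1 and 56.5 CPM in LSD1i 1 to LSD1i 4 and at 68.8, 59.3, 68.7, 79.6 and 49.2 CPM in NT 1 to NT 5. The groups overlap, with 4 of the 5 NT libraries above most LSD1i libraries, and the log2 fold change was −0.18 ± 0.12 (adjusted p = 0.589). Cd70, the CD27 ligand, was the rarest member, with 33 to 64 counts in LSD1i and 11 to 43 counts in NT. It was at 2.21, 3.30, 2.40 and 1.56 CPM in LSD1i 1 to LSD1i 4 and at 0.534, 1.58, 1.42, 2.27 and 0.489 CPM in NT 1 to NT 5. The groups overlap. Its fold change of 1.93 equals that of Icos in size, but the interval ran from 1.03 to 3.62 and the change did not pass (adjusted p = 0.310).

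**Figure D3:**
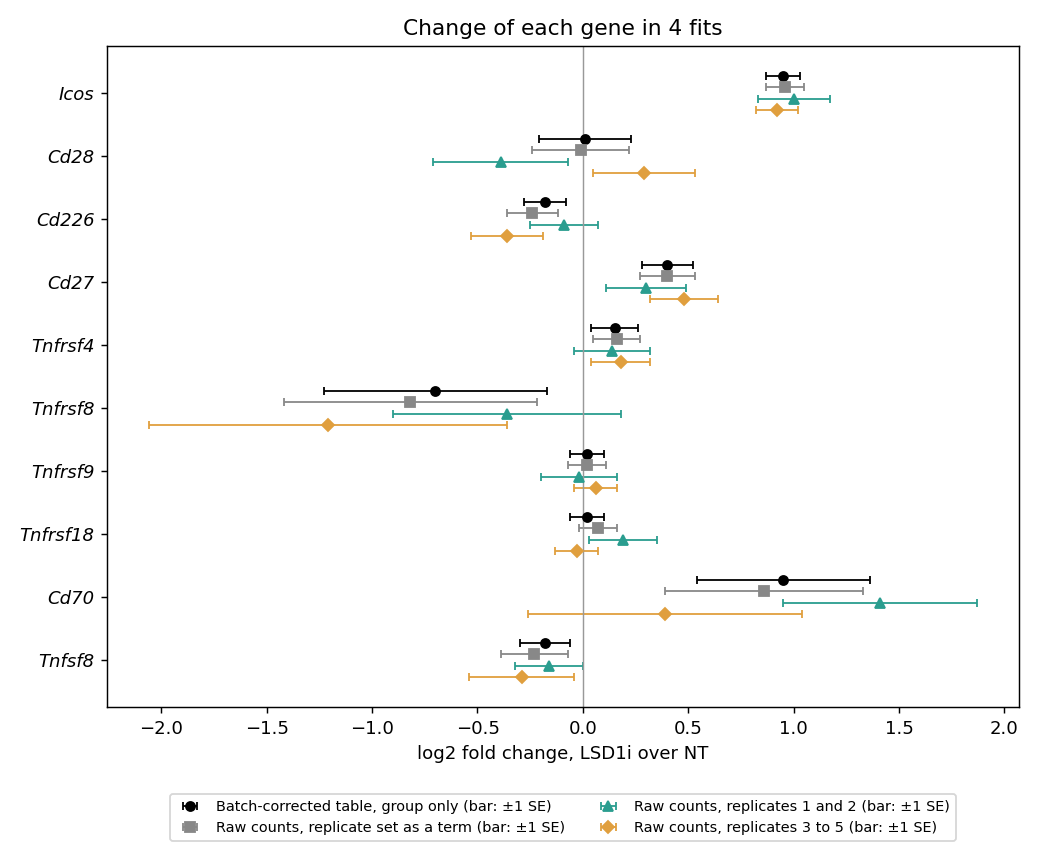
Log2 fold change of LSD1i over NT for each gene in 4 fits, each point with its SE: the batch-corrected table, and raw counts with the batch-corrected names fitted with the replicate set as a term, in replicates 1 and 2 alone and in replicates 3 to 5 alone. The 4 points of Icos lie between 0.92 and 1.00, those of Tnfrsf9 at or near 0, and those of Cd28 fall on both sides of 0.

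Levels of different genes were compared per kilobase of exon, with lengths of 0.842 to 6.12 kb from GENCODE M21. In LSD1i, Tnfrsf9 was at 623.8 CPM per kb, Tnfrsf18 at 424.7 and Tnfrsf4 at 424.6. Then came Cd28 at 50.7, Cd27 at 47.7 and Icos at 46.0 CPM per kb, followed by Tnfsf8 at 15.1, Cd226 at 13.0, Tnfrsf8 at 6.09 and Cd70 at 2.81. In NT, Tnfrsf9 was at 615.6 CPM per kb, Tnfrsf18 at 419.5, Tnfrsf4 at 382.9, Cd28 at 50.1, Cd27 at 36.1 and Icos at 23.8. Tnfsf8 followed at 17.1, Cd226 at 14.7, Tnfrsf8 at 9.89 and Cd70 at 1.50 CPM per kb. The order of the means was the same in both groups. In LSD1i the range of Icos over libraries, 42.6 to 50.5 CPM per kb, overlapped those of Cd28 and Cd27, whereas in NT its range of 22.0 to 25.0 lay below both. Of the other neighbours in this order, Tnfrsf18 and Tnfrsf4 overlapped in both groups, as did Cd28 and Cd27, Tnfsf8 and Cd226 overlapped in NT, Cd226 and Tnfrsf8 in NT, and Tnfrsf8 and Cd70 in LSD1i.

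Icos, Ctla4 and Cd28 are neighbours on chromosome 1, and Tnfrsf4 and Tnfrsf18 on chromosome 4, which holds 5 of the 10 genes. Of the 6 tested genes nearest to Icos, 0 passed, with log2 fold changes of −0.25 to 0.23 and adjusted p of 0.362 or more. Of the 6 nearest to Tnfrsf4, likewise 0 passed (−0.48 to 0.11, adjusted p of 0.325 or more), where 3.31% of all tested genes passed.

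Among other ligands of costimulatory receptors, further genes rose. Of 10 listed ligands 7 could be tested, and 3 rose and 0 fell (0 lower by an unadjusted p under 0.05 and 0 in DESeq2), where 2.15% of all genes rose; all 7 fold changes were above 0, with a median of 0.25 on the log2 scale. Tnfsf9, the ligand of 4-1BB, averaged 9.79 ± 1.35 CPM in LSD1i and 4.51 ± 0.602 CPM in NT (log2 fold change 1.12 ± 0.14, adjusted p = 0.00104). Pvr, a ligand of CD226 that inhibitory receptors also bind, averaged 63.1 ± 9.46 CPM in LSD1i and 38.6 ± 8.05 CPM in NT (0.71 ± 0.15, adjusted p = 0.0264). In raw counts Pvr was at 0.33 ± 0.25 in replicates 1 and 2 alone (adjusted p = 0.926) and 0.91 ± 0.13 in replicates 3 to 5 alone (0.0370). Tnfsf14 (LIGHT), a ligand of the receptor HVEM, averaged 58.7 ± 1.91 CPM in LSD1i and 44.2 ± 3.87 CPM in NT (0.41 ± 0.08, adjusted p = 0.0200). In raw counts with the replicate set as a term, Tnfsf9 (adjusted p = 0.00320) and Tnfsf14 (0.0423) passed and Pvr (0.0775) did not. Without 1 library at a time the count of 3 fell to as low as 1, since Pvr lost its call in 6 of 9 cases (adjusted p up to 0.0756) and Tnfsf14 in 5 (up to 0.0733), whereas Tnfsf9 kept its own in all 9.

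Of 14 genes listed as other costimulatory molecules 12 could be tested, and 1 rose and 0 fell in edgeR and in DESeq2, where 2.15% of all genes rose in edgeR. By an unadjusted p under 0.05, 2 were higher and 2 lower. The one that rose was Cd40lg, a ligand of the TNF family (for CD40) and no receptor of that family, a rare transcript here at 0.877 to 1.56 CPM in LSD1i and 0 to 0.267 CPM (at most 6 counts) in NT (adjusted p = 0.00295; 0.00814 in raw counts with the replicate set as a term). Crtam, a receptor of activated CD8 T cells, averaged 123.8 ± 5.20 CPM in LSD1i and 147.7 ± 12.6 CPM in NT and did not pass (log2 fold change −0.25 ± 0.08, adjusted p = 0.146; 0.0454 without NT 5).

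Signalling genes below the receptors showed 0 calls in edgeR and 0 in DESeq2. Over all tested genes edgeR called 3.31%, and DESeq2 called 3.34% higher and 2.23% lower. Of 20 genes of CD28 and ICOS signalling 19 were tested, with a median log2 fold change of 0.01, and the paracaspase Malt1 was at −0.26 ± 0.12 (adjusted p = 0.353). By an unadjusted p under 0.05, 0 were higher and 1 was lower. All 24 genes of TRAF and NF-κB signalling were tested, with a median of 0.02. Nfkb1, an NF-κB subunit, was at −0.22 ± 0.10 (adjusted p = 0.307) and Birc2, a ubiquitin ligase bound by TRAF2, at 0.21 ± 0.11 (adjusted p = 0.440), and by an unadjusted p under 0.05, 0 were higher and 1 was lower. The 7 listed regulators of Icos and Tnfrsf4 mRNA include roquin-1 (Rc3h1), roquin-2 (Rc3h2) and regnase-1 (Zc3h12a), which in mouse T cells shorten the life of these messages. Of these 7 genes 0 passed in either tool, and 0 had an unadjusted p under 0.05. The log2 fold changes of these best known regulators, singled out after their values were seen, were 0.07 ± 0.15 for Rc3h1, −0.12 ± 0.13 for Rc3h2 and 0.06 ± 0.15 for Zc3h12a. The smallest p was that of Zc3h12d (0.21 ± 0.10, adjusted p = 0.355), then N4bp1 (0.19 ± 0.10, adjusted p = 0.405).

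**Figure D4:**
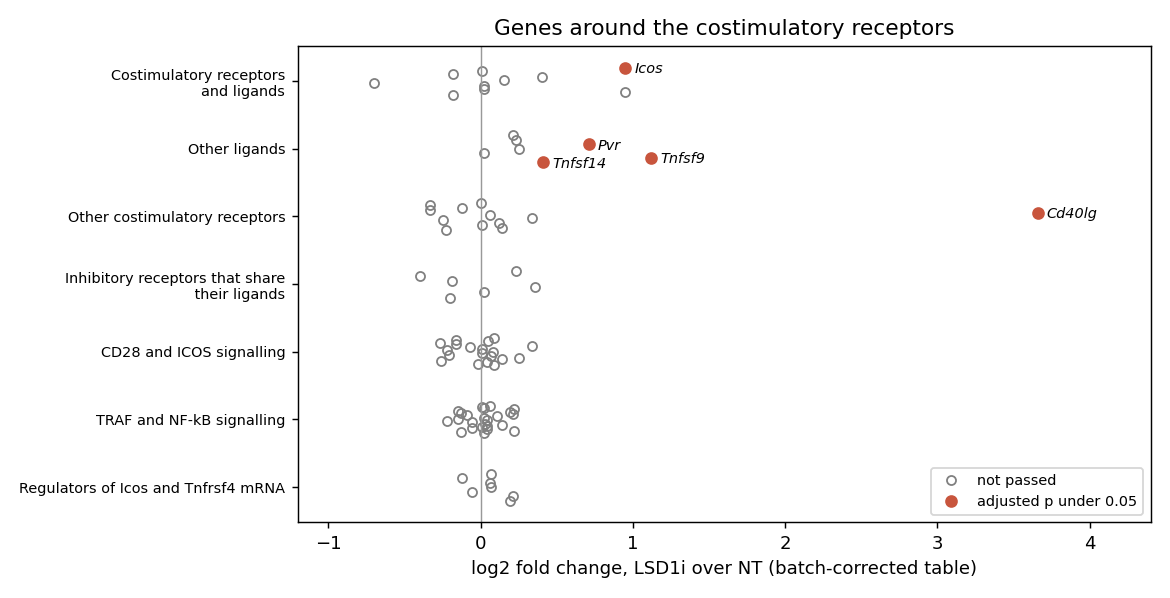
Log2 fold change of LSD1i over NT in the batch-corrected table for every tested gene of each list, 1 point a gene, filled and named where the adjusted p is under 0.05. Filled points occur among the receptors described here (Icos), the other ligands (Tnfsf9, Pvr and Tnfsf14) and the list drawn as other costimulatory receptors (Cd40lg, a ligand), and 0 among the inhibitory receptors, the 2 signalling lists and the mRNA regulators.

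Likeness to Icos was measured over all 9 libraries as the root-mean-square difference between log2 CPM profiles, each centred on its own mean. The comparison covered the other 7705 genes whose mean log2 CPM reached 4. The nearest profiles were those of Dennd5a (0.084), Ctss, which encodes the lysosomal protease cathepsin S (0.120), Milr1 (0.143), St8sia4, a polysialyltransferase (0.144), and Dip2c (0.149). The median over all genes was 0.507. Each of these 5 genes also rose, by log2 fold changes of 1.09 for Dennd5a, 0.83 for Ctss, 0.75 for Milr1 and 0.97 for St8sia4 and for Dip2c. Each passed in raw counts with the replicate set as a term (adjusted p of 0.000224 for Dennd5a to 0.00358 for Milr1). The measure itself favours both the size and the calls, because it picks profiles like that of Icos in the same libraries. Among the other receptors and ligands with that level, Cd27 was nearest at 0.348 and Tnfrsf8 farthest at 1.151.

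Markers of other cells were checked beside these results. The CD4 and regulatory T cell list summed to 930.1 to 1173.8 CPM in LSD1i and 785.0 to 1069.5 CPM in NT, most of it Ctla4, which CD8 T cells also express, and of its 3 tested genes 0 passed in edgeR and 1 in DESeq2 (1 had an unadjusted p under 0.05). That gene was Ikzf2, which encodes the transcription factor Helios and was listed here as a marker of regulatory T cells. Cd4 and Foxp3 of that list had at most 5 counts in any library. Zbtb7b, the remaining tested gene, was added after its values were seen. It was at 38.4 to 45.3 CPM in LSD1i and 27.9 to 46.3 CPM in NT (log2 fold change 0.14 ± 0.14, adjusted p = 0.754 in edgeR). Ikzf2 was singled out after its values were seen. It was at 69.9 to 114.2 CPM in LSD1i and 32.8 to 73.7 CPM in NT, which overlap (log2 fold change 0.83 ± 0.21, adjusted p = 0.0614 in edgeR and 0.00559 in DESeq2). In edgeR its adjusted p was 0.215 in raw counts with the replicate set as a term. With the replicate block it was 0.0301 in the batch-corrected table and 0.101 in raw counts. The log2 fold change of Ikzf2 in raw counts was 0.12 ± 0.32 in replicates 1 and 2 alone (adjusted p = 0.969). In replicates 3 to 5 alone it was 1.15 ± 0.12 (adjusted p = 0.0168). The NK cell list summed to 64.5 to 84.4 CPM in LSD1i and 39.2 to 50.1 CPM in NT, nearly all of it Eomes, which activated CD8 T cells also express (log2 fold change 0.82 ± 0.10, adjusted p = 0.00108; 0.00270 in raw counts with the replicate set as a term), with Ncr1, Klra8 and Klra4 at 0 in every library. The B cell list summed to 8.08 to 9.38 CPM in LSD1i and 11.1 to 12.4 CPM in NT, nearly all of it Cd79b (−0.43 ± 0.09, adjusted p = 0.0317; 0.132 in raw counts with the replicate set as a term). The myeloid list reached 1.32 CPM in LSD1i and 1.56 CPM in NT, and the mast cell and basophil list 0.117 CPM in LSD1i and 0.178 CPM in NT. The part of these levels in the results above was not tested.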

How the data were processed

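RNA of 9 mouse CD8+ T cell libraries, 4 LSD1i and 5 NT, was sequenced from 1 µg of total RNA each. Per the submitters' processing notes, STAR, featureCounts and edgeR were used with build mm9; the versions, the strand setting and the method of batch correction are not given in the sources used. The authors deposited raw counts per gene symbol, and batch-corrected values that were treated as estimated counts and rounded to whole numbers. The authors' deposited table of LSD1i over NT gives log2 fold changes, an F score and p-values and was used only for description.

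Libraries of both tables were matched by their genes at 0, with 0 genes differing for each match and at least 1336 for the next best. Calls come from edgeR 4.0.16 (R 4.3.3, limma 3.58.1) on the batch-corrected table, group only, with TMM, a low-count filter (minimum count 10, minimum total 15; 11981 genes) and Benjamini-Hochberg adjustment over all tested genes at 0.05. A fit on raw counts (11916 genes) with the batch-corrected names and the replicate set as a term was set beside the calls named, because the correction's degrees of freedom are not charged in the first. Alternatives were DESeq2 1.42.0, RLE scaling, no filter, a replicate block, each replicate set alone, the raw table's own names, and leaving out each library. Overlapping or antisense genes cannot be told apart where strand was not used.

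The members and lists were chosen with earlier results of these data known. Named are all 10 members, up to 4 genes a list that passed, and, where fewer than 2 passed, the 2 with the smallest p; exceptions are stated, and a few of the listed genes are not reported here. Most similar profiles are the 5 with the smallest root-mean-square difference.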

Additional observations from a re-analysis of the deposited data

Results flagged for a closer look

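The highest and the lowest library of each group were checked by Dixon's test, which sets the gap to the next library against the range of the group. In 20 combinations of a gene and a group, 1 library passed its critical value at the 95% level, a rate that chance gives in about 1 of 20 groups. Tnfsf8 (CD30 ligand) was at 60.9 CPM in LSD1i 1, against 56.1, 56.1 and 56.5 CPM in the other LSD1i libraries, a gap of 90.3% of the range. This library is still within the NT range of 49.2 to 79.6 CPM. The high Tnfrsf8 level of NT 5, with a gap of 63.2% of the NT range, did not pass that test.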

How the results depend on the processing

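Icos kept its direction and its call under RLE scaling, no filter, DESeq2, the replicate set term, both replicate blocks, replicates 3 to 5 alone and every fit without 1 library; it lost the call in replicates 1 and 2 alone and under the raw table's own names. The count of genes changed was 397, against 667 in DESeq2, 220 with the replicate set as a term, 8 in replicates 1 and 2 alone, 117 in replicates 3 to 5 alone, 0 under the raw table's own names, 219 to 432 without 1 library, and 96 to 331 without 1 library in the fit with the set term (chosen after seeing the data). Of the 10 genes, 2 rose in DESeq2 (Icos and Cd27), 0 in replicates 1 and 2 alone and 0 under the raw names. Genes whose change differed between replicate sets numbered 0 (581 at an unadjusted p under 0.05), against 320 with no filter and 0 to 401 without 1 library, 401 being the fit without NT 2; 0 of the 10 genes were among those in any of these settings. The causes were not tested.

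Some log2 fold changes changed sign. Cd28 was at −0.014 with the set term, −0.392 in replicates 1 and 2 alone and −0.141 to 0.2 without 1 library. Tnfrsf9 was at −0.001 under the raw names, −0.019 in replicates 1 and 2 alone and −0.019 to 0.064 without 1 library, and Tnfrsf18 at −0.141 under the raw names and −0.029 in replicates 3 to 5 alone. Under the raw names larger values changed sign too: Cd70 was at −0.478, Tnfsf9 at −0.013, Btla at −0.018 and Dennd5a at −0.133, the called changes of Tnfsf9 and Dennd5a among them. In replicates 1 and 2 alone Ctla4 was at −0.015, Birc2 at −0.055 and N4bp1 at −0.013.

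Same-numbered libraries correlated at −0.146, 0.460, 0.125 and −0.378 in the batch-corrected table, where 0 of 4 correlated best with their own number. These correlations do not settle whether the numbers pair the samples. In raw counts with the batch-corrected names, which keep the replicate sets, the values were 0.583, 0.825, 0.749 and 0.584 (2 of 4). With the replicate number as a block, 326 genes changed in the batch-corrected table and 352 in those raw counts, Cd28 was at −0.107 and −0.116, and the block changed no call among the 10 genes.

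Depth limits the precision of Cd70, with 11 to 64 counts a library, and of Cd40lg, with at most 33.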

Other observations

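In the authors' deposited table of 20052 genes, Icos had a log2 fold change of 0.96 and an adjusted p of 5.23e-05 (rank 28 by p) but was marked as not significant, as were all 10 genes described here. That table marks 138 genes as changed, 94 of them up, and the smallest absolute log2 fold change among them is 1.2, while 385 genes have an adjusted p under 0.05 there. Counts of changed genes by the authors' marks therefore leave Icos out, although its adjusted p is well under 0.05. The log2 fold changes there differ by at most 0.00824 from those of the fit with no filter under the batch-corrected names.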
